A study of Mus musculus with 10 samples.

Results

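Regions enriched with a Dlx2 antibody in the basal ganglia and in the cortex of the mouse at embryonic day 16 (E16) were compared. Each tissue was represented by 1 list of enriched regions from 1 chromatin immunoprecipitation and sequencing (ChIP-seq) library. On chromosomes 1 to 19 and X the basal ganglia list held 14732 regions and the cortex list 6307, so 21039 of the 25667 regions in the 5 Dlx2 lists of the series entered the comparison. A region was called shared when it overlapped a region of the other list by at least 1 bp, and otherwise basal-ganglia-only or cortex-only. The overlap rule used position alone, not the height of a region.

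Dlx2 is a homeodomain transcription factor made by progenitors of the ganglionic eminences, the embryonic basal ganglia. It is known to drive the differentiation and migration of GABAergic neurons, acting together with its neighbour Dlx1, and homeodomain proteins of its family favour DNA with a TAATTA core. The excitatory neurons of the cortex arise locally from dorsal progenitors that express factors such as Emx1 and Pax6. Cortical interneurons instead migrate in from the ganglionic eminences, so the cortex at this age holds a minority of cells of the Dlx lineage.

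Both groups were mouse brain tissue at E16, fixed in 1.5% formaldehyde, sheared to 300 to 1000 bp, precipitated with 5 µg of Dlx2 antibody and sequenced with 50 nt reads, per the labels. Genotype, strain, and the number of embryos behind a library are not known from the labels. The other 3 Dlx2 lists came from the olfactory bulb at E16 and from the olfactory bulb and cortex at postnatal day 3 (P3). Input chromatin of each tissue and age was also sequenced and was not analysed here. With 1 library per group no difference between tissues could be tested, and every interval given is an exact Clopper-Pearson 95% interval that covers counting error only. Region lists hold no expression values, so the tissue labels could not be checked against expressed markers. The tissue is a mixture of cells, and fewer cells with Dlx2 at a site and less Dlx2 per cell cannot be told apart. No sample is labelled as lacking Dlx2, so enrichment not due to Dlx2 cannot be told apart from binding of Dlx2. Read depth was unknown, and a region missing from a list lay below the authors' threshold in that library rather than being shown free of Dlx2.

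Sequences at 4 promoters are shown as examples, 1 start in both lists, 1 in the cortex list only and 2 in the basal ganglia list only. Of the 4, 3 were picked because they hold TAATTA, which most promoters of their classes lack. Each is the 250 bases before a transcription start, from RefSeq on build GRCm38.p6 (mm10), read 5′ to 3′ on the strand of the gene, which is the minus strand in all 4, with TAATTA in capitals. Nfix, encoding a nuclear factor I protein of neural progenitors, had regions of both lists at chr8:84780083-84780332. At chr8:84775829-84776078 only the cortex list had a region, and the nearest basal ganglia summit lay 449 bp from the start. That summit fell within the same cortex region (chr8:84774990-84776642). The region itself was therefore shared, and only the promoter window lacked a basal ganglia region. Otx2, encoding a homeodomain factor of the early forebrain, was covered at chr14:48665110-48665359 in the basal ganglia list only. Dcx, encoding the microtubule protein doublecortin of migrating neurons, was covered at chrX:143933220-143933469 in the basal ganglia list only.
Nfix, both lists: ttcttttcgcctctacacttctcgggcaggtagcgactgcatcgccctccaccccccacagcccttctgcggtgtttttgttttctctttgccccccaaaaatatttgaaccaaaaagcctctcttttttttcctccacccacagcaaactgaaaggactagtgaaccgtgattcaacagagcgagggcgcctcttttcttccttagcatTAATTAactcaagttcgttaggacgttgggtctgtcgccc
Nfix, cortex list only: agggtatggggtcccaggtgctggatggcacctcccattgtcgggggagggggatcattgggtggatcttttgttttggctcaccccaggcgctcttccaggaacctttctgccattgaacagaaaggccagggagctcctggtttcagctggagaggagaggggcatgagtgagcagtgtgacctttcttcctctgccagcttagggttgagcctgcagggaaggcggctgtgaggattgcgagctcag
Otx2, basal ganglia list only: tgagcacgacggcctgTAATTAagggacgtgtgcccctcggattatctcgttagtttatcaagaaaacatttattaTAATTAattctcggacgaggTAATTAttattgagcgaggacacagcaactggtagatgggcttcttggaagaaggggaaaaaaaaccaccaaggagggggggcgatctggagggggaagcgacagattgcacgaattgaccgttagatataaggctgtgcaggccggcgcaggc
Dcx, basal ganglia list only: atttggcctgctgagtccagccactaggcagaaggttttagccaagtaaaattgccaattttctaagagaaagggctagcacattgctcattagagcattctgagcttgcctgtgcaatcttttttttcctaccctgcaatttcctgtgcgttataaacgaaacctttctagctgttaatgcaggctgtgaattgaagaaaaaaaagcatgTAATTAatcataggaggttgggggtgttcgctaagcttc
At the shared Nfix start the nearest summits lay 21 bp (basal ganglia) and 160 bp (cortex) from the start, and the fold enrichment, the authors' ratio of signal to local background, was 5.86 and 16.9 within the respective lists. The cortex summit at the other Nfix start lay 93 bp away in a region of fold 6.64. The basal ganglia summits lay 193 bp from the Otx2 start (fold 5.28) and 44 bp from the Dcx start (fold 7.23). The capitals show 3 TAATTA at Otx2, 1 at Dcx, 1 at the shared Nfix start and 0 at the Nfix start covered in the cortex list only.

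The letters TAATTA, which read the same on both strands, were counted in all 32619 promoter windows of the table, from 250 bases before to 50 after each start. A region covered the window in both lists for 306 starts (0.938%), in the basal ganglia list only for 739 (2.27%) and in the cortex list only for 63 (0.193%). TAATTA was present in 9.88% of the windows covered in the basal ganglia list only (73, interval 7.82 to 12.3%). Windows were counted per start, and these 739 belonged to 667 genes. Windows of neighbouring starts can overlap and hold the same TAATTA, while the intervals treat windows as independent. TAATTA stood in 4.58% of the windows covered in both lists (14, interval 2.52 to 7.56%) and in 5.25% of all windows. It was present in 0 of the 63 windows covered in the cortex list only, where the exact interval reaches up to 5.69% and so includes the share of all windows. ATGCAAAT, the octamer bound by POU factors, on either strand, stood in 3.52% of the windows covered in the basal ganglia list only, 0.654% of those covered in both and 1.75% of all, and in 0 of the 63 covered in the cortex list only. CAGCTG, a form of the E-box bound by bHLH factors, stood in 33.3% (22.0 to 46.3%) of the windows covered in the cortex list only, 18.3% of those in the basal ganglia list only, 21.2% of those in both and 16.4% of all. GGGCGG, a GC box, on either strand, stood in 47.9%, 49.7% and 42.9% of windows covered in the basal ganglia list only, both lists and the cortex list only, against 35.9% of all windows. CCAAT, on either strand, stood in 44.0%, 35.0% and 41.3% in the same order and in 37.6% of all, and TATAAA in 12.7%, 6.86% and 7.94% and in 13.7% of all. These are matches of letters and not measured binding sites.

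MicroRNA genes were a second place where the lists could be compared in sequence. Each hairpin was classed by the lists with a region over the hairpin itself, which can differ from the class of that region. Of 1005 mapped hairpins, 52 (5.17%) were covered by a region in both lists, 24 (2.39%) in the basal ganglia list only and 13 (1.29%) in the cortex list only. The genes of miR-9, a microRNA of neural progenitors, lie at 3 places in the genome, and Mir9-1, Mir9-2 and Mir9-3 were all covered in both lists. The hairpins covered in the cortex list only included the cluster Mir17, Mir18, Mir19a, Mir20a, Mir19b-1 and Mir92-1, known for promoting proliferation. They lay under a single cortex region at chr14:115043462-115044774 of fold 8.24. The related cluster of Mir106b, Mir93 and Mir25 and the gene Mir92b were covered in both lists. Mature sequences are shown with the seed (bases 2 to 8) in capitals, since it groups the Mir17 cluster with relatives covered in both lists.
miR-9-5p, both lists: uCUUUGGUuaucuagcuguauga
miR-17-5p, cortex list only: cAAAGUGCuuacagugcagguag
miR-20a-5p, cortex list only: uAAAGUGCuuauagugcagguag
miR-93-5p, both lists: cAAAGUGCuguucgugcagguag
miR-106b-5p, both lists: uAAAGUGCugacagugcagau
miR-92a-3p, cortex list only: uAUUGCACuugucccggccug
miR-92b-3p, both lists: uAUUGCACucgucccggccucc
miR-25-3p, both lists: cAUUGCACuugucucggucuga
miR-19a-3p, cortex list only: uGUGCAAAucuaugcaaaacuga
miR-18a-5p, cortex list only: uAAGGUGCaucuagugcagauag
miR-17, miR-20a, miR-93 and miR-106b share the seed AAAGUGC, and miR-92a, miR-92b and miR-25 share AUUGCAC. MicroRNA genes of the same seed were thus found among hairpins covered in the cortex list only and among those covered in both lists. The regions over the miR-9 genes were wide in both lists. At Mir9-1 the basal ganglia region spanned 11294 bp (fold 31.0) and the cortex region 23006 bp (fold 24.8). At Mir9-2 they spanned 13775 bp (fold 34.8) and 8381 bp (fold 23.2), and at Mir9-3 19000 bp (fold 46.8) and 27627 bp (fold 63.0). Other neuronal microRNA genes in both lists were Mir128-2 (fold 16.4 in the basal ganglia list and 24.8 in the cortex list) and Mir137 (10.8 and 7.61). Mir153 (fold 7.62) and Mir125b-1 (fold 4.40) were covered in the basal ganglia list only.

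Of the 6307 cortex regions, 3875 (61.4%; 60.2 to 62.6%) were shared, and of the 14732 basal ganglia regions, 3876 (26.3%; 25.6 to 27.0%) were. This left 10856 basal-ganglia-only and 2432 cortex-only regions. The lists differ in length, and with only the top 2000 regions by −log10 q taken from each, the shares were 32.15% of the cortex regions and 29.95% of the basal ganglia regions. Shared regions were wide, with a median of 791 bp in the basal ganglia list and 753 bp in the cortex list, against 459 bp for basal-ganglia-only and 430 bp for cortex-only regions. Of the cortex regions wider than 2000 bp, 97.1% were shared, as were 95.5% of such basal ganglia regions, while at 500 bp or less the shares were 43.0% and 13.3%. Width enters the overlap rule itself, and with regions of at most 1 kb in both lists 35.5% of cortex and 13.2% of basal ganglia regions were shared. At the edge of the rule, 86 of 4376 overlapping pairs met by 50 bp or less, and 48 basal-ganglia-only and 47 cortex-only regions missed a region of the other list by 50 bp or less.

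**Figure D1:**
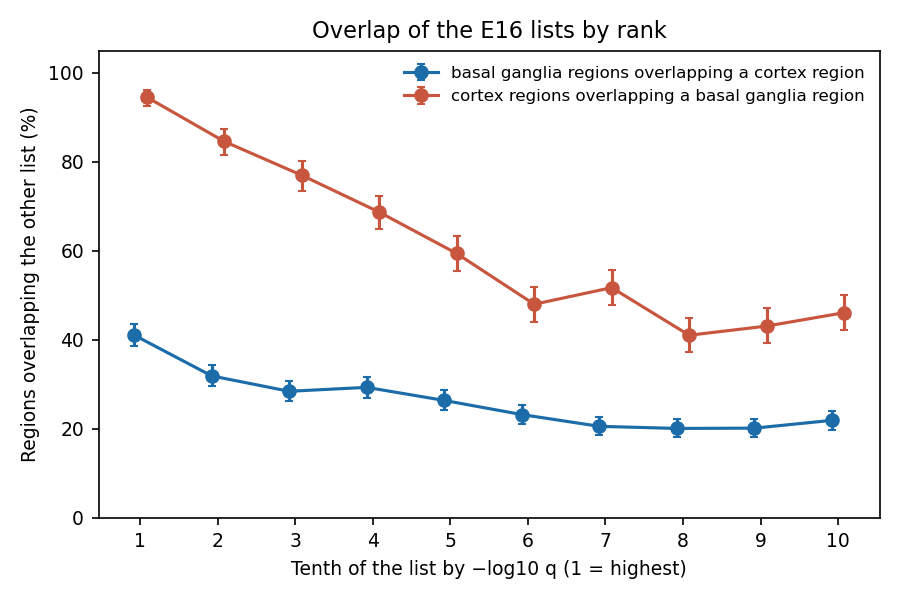
Percent of regions that overlap the other list (vertical axis) in 10 equal steps along each list in order of −log10 q (horizontal axis, 1 is the highest), for the basal ganglia and cortex lists, with exact 95% intervals. The share fell from 94.6% to 46.1% along the cortex list and from 41.1% to 21.9% along the basal ganglia list.

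Nearly all of the highest cortex regions were also called in the longer basal ganglia list. In the plot of overlap by rank, 94.6% of the highest-ranked 10% of cortex regions were shared, against 41.1% of the highest-ranked 10% of basal ganglia regions, with the unequal list lengths entering both shares. The 10 shared pairs highest in summed rank included regions at Pou3f3, a POU factor of neural progenitors (fold 55.7 in the basal ganglia list, 63.2 in the cortex list), and Mex3a, an RNA-binding protein (53.2 and 71.9). Among them were also Mex3b (44.5 and 54.5), Dchs1, a protocadherin (45.5 and 59.1), and the semaphorin gene Sema6c (37.99 and 43.1). The third pair lay 47.7 kb outside Polg and was the region over Mir9-3. These 10 pairs had summits 10 to 969 bp apart, and 8 of the 10 were within 200 bp.

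Over all 4376 pairs the summits lay a median of 162 bp apart, and 55.9% (54.4 to 57.4%) lay within 200 bp. At Dlx2 the regions chr2:71540119-71546773 (basal ganglia) and chr2:71542567-71545834 (cortex) had summits at 71544643 and 71544673. At Slc32a1, encoding the vesicular GABA transporter, the summits were at 158614617 and 158614730 on chromosome 2. Across the 2445 pairs with summits within 200 bp, the folds in the 2 lists were related by a Spearman rho of 0.435 and a Pearson r of 0.559 on the log scale, as a description across regions that share a library. The median fold of these pairs was 5.28 in the basal ganglia list and 5.86 in the cortex list.

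Dlx1, Dlx2, Dlx5, Dlx6, Gad1, Gad2 and Slc32a1 held regions in both lists, and most of the basal ganglia regions at Gad1 and Gad2 were basal-ganglia-only. A gene was counted as occupied where a summit lay within its body or 10 kb on either side. By this rule 14.5% of the 21627 protein-coding genes were occupied in both lists, 12.1% in the basal ganglia list only and 2.67% in the cortex list only. A gene in both lists need not hold a shared region, and 261 of the 3145 such genes (8.30%) held none. Of the 6 Dlx genes, Dlx1, Dlx2, Dlx5 and Dlx6 were occupied in both lists, Dlx4 in the basal ganglia list only (fold 3.91) and Dlx3 in neither. The highest fold was 22.8 at Dlx1, 35.3 at Dlx2 and 35.6 at Dlx5 and Dlx6 in the basal ganglia list, where the last pair share a region. In the cortex list it was 7.70 at Dlx1, 12.8 at Dlx2, 10.6 at Dlx5 and 8.67 at Dlx6. The 5 Dlx2 regions of the cortex list were all shared, as were 3 of the 5 in the basal ganglia list.

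Of the 7 genes of GABA synthesis and transport, 4 were occupied in both lists, 1 in the basal ganglia list only and 2 in neither. Gad1, encoding a GABA-synthesising enzyme, had 13 basal ganglia regions, of which 12 were basal-ganglia-only, and 4 cortex regions, with highest folds of 17.7 and 8.22. Gad2, encoding the related enzyme, had 21 regions, 20 of them basal-ganglia-only, against 2 in the cortex list (folds 16.6 and 6.29). Slc32a1 had 7 and 4 regions (33.0 and 12.6). Abat, which breaks GABA down, had 2 basal-ganglia-only regions (fold 7.62). The GABA transporter genes Slc6a11 and Slc6a13 had none in either list.

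Factors of the ventral telencephalon were largely split between both lists and the basal ganglia list only. Among all protein-coding genes 14.5% were in both, 12.1% in the basal ganglia list only and 2.67% in the cortex list only. Of 17 ganglionic eminence progenitor factors, 6 were in both lists, 8 in the basal ganglia list only, 0 in the cortex list only and 3 in neither. The basal ganglia list alone held Vax1 (fold 12.7), Nkx2-1, which specifies the medial ganglionic eminence (8.99), and Olig2 (8.79). Sp9 (36.5 in the basal ganglia list and 16.5 in the cortex list) and Gbx1 (18.4 and 11.5) were in both. These Gbx1 summits lay 9.14 kb (basal ganglia) and 9.28 kb (cortex) outside the gene, near the limit of 10 kb. Of 14 genes of the medial ganglionic eminence lineage, 9 were in both and 4 in the basal ganglia list only. Zeb2 (18.95 and 13.9) and Lhx6 (7.65 and 8.46) were in both, and Isl1 (10.7) and Lhx8 (5.27) in the basal ganglia list only. Lhx6 had 14 basal ganglia and 7 cortex regions, and all 7 were shared. Of 10 genes of the caudal ganglionic eminence lineage, 6 were in both and 4 in the basal ganglia list only. Nr2f1, an orphan nuclear receptor, had a fold of 25.6 in the basal ganglia list and 48.7 in the cortex list, while Npas1 (22.3) and the serotonin receptor gene Htr3a (13.3) had basal ganglia regions only. Of 26 genes of striatal projection neurons, 9 were in both and 9 in the basal ganglia list only, among them Pbx3 (22.7), Meis1 (18.5) and Zfhx3 (13.6). Bcl11b, a zinc finger factor of striatal and deep-layer neurons, had 38 basal ganglia and 16 cortex regions.

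Most migration and guidance genes were occupied in the basal ganglia list only. Most interneuron subtype genes were in neither list, as were 70.7% of all protein-coding genes. Of 22 migration and guidance genes, 13 were in the basal ganglia list only, 6 in both and 0 in the cortex list only. The same classes held 12.1%, 14.5% and 2.67% of all protein-coding genes. These 22 genes were long, with a median of 163 kb against 17.3 kb for all protein-coding genes. The 13 included the netrin receptor gene Dcc (fold 16.6), the ephrin gene Efna5 (16.5), Erbb4, the neuregulin receptor of migrating interneurons (15.4), the chemokine receptor gene Ackr3 (12.4), and the Slit receptor gene Robo1 (11.5) with 16 regions. Epha4, an ephrin receptor, was in both (19.7 and 18.8). Of 17 interneuron subtype genes, 5 were in the basal ganglia list only, 1 in both (Pnoc, fold 9.18 and 5.00), 1 in the cortex list only (Nos1, 6.29) and 10 in neither. Those in neither included Sst, Pvalb and Vip. Cxcl14, a chemokine gene (chr13:56288643-56296811), was also in neither. Its nearest summits lay 66.6 kb away in the basal ganglia list (fold 4.12) and 57.5 kb away in the cortex list (fold 3.91), and neither region was shared.

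**Figure D2:**
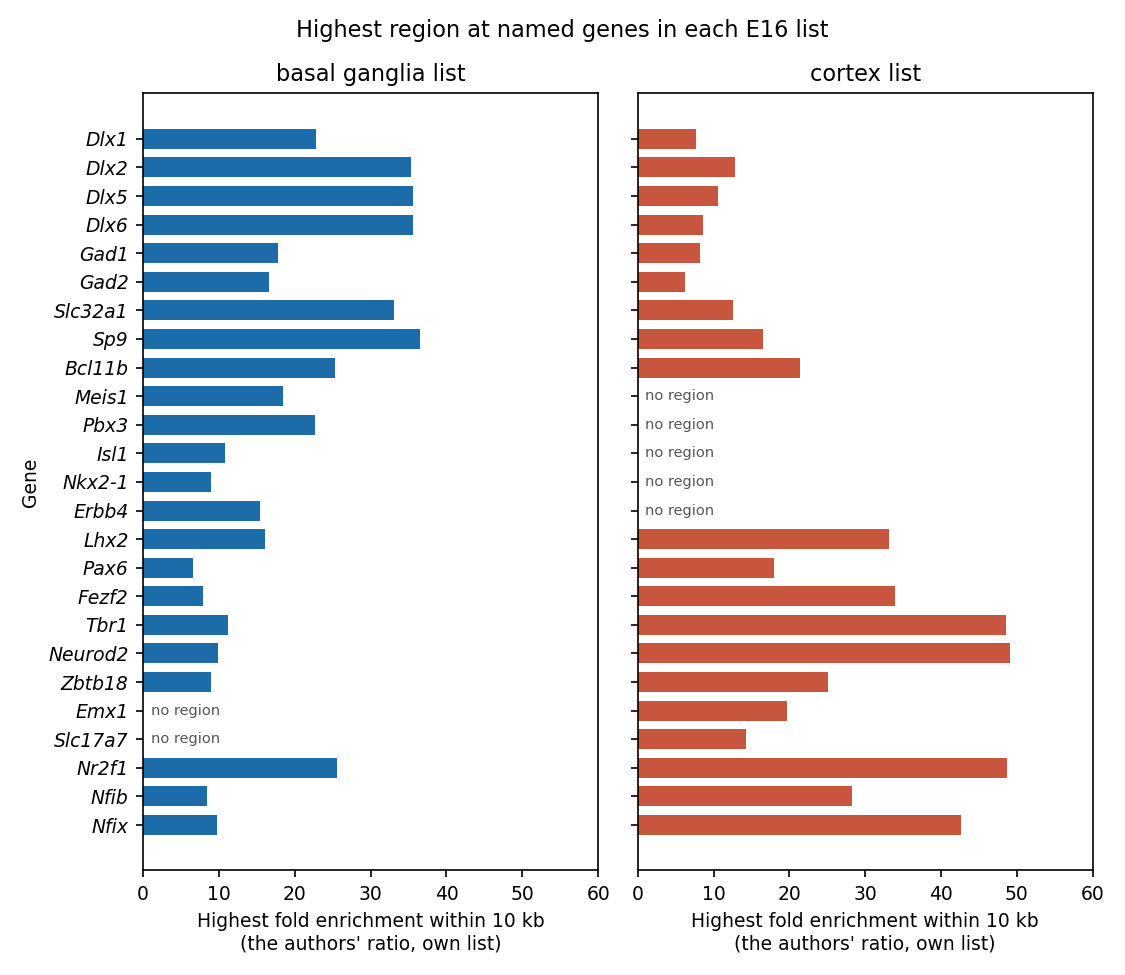
Highest fold enrichment within 10 kb of each named gene (horizontal axis, the authors' ratio) in the basal ganglia list (left) and the cortex list (right), 1 library each, with genes chosen after their values were seen. Folds belong to their own list, so bars are to be compared within a panel; Dlx2 and Sp9 stand high on the left, Tbr1 and Neurod2 on the right.

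Genes of the dorsal telencephalon and the glutamatergic lineage were occupied in both lists for the most part, with 3 found in the cortex list only, where no other gene list had more than 1. Of its 26 members, 20 were in both, 3 in the cortex list only (Emx1, Neurog2 and Slc17a7), 2 in the basal ganglia list only (Rorb and Fezf1) and 1 in neither (Neurog1). Among all protein-coding genes 14.5% were in both, 2.67% in the cortex list only and 12.1% in the basal ganglia list only. In the plot of folds at named genes, Neurod2, a bHLH factor of excitatory neurons, had a highest fold of 49.1 in the cortex list and 9.84 in the basal ganglia list. Tbr1, a T-box factor of deep-layer neurons, had 48.5 and 11.1. Fezf2, which specifies subcortical projection neurons, had 34.0 and 7.92, Lhx2 33.1 and 16.02, Zbtb18 25.1 and 8.89, and Pax6 17.98 and 6.61. Within the cortex list the highest Tbr1 region ranked 12 by −log10 q, and the highest Dlx2 region 328. Within the basal ganglia list the Dlx2 region ranked 20 and the Tbr1 region 456. Emx1, a homeobox gene of cortical progenitors, had 3 cortex regions, the highest at chr6:85189217-85195495 (fold 19.7), and no basal ganglia region within 10 kb. Slc17a7, the vesicular glutamate transporter of cortical neurons, had a cortex region at chr7:45174409-45175677 (fold 14.3).

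**Figure D3:**
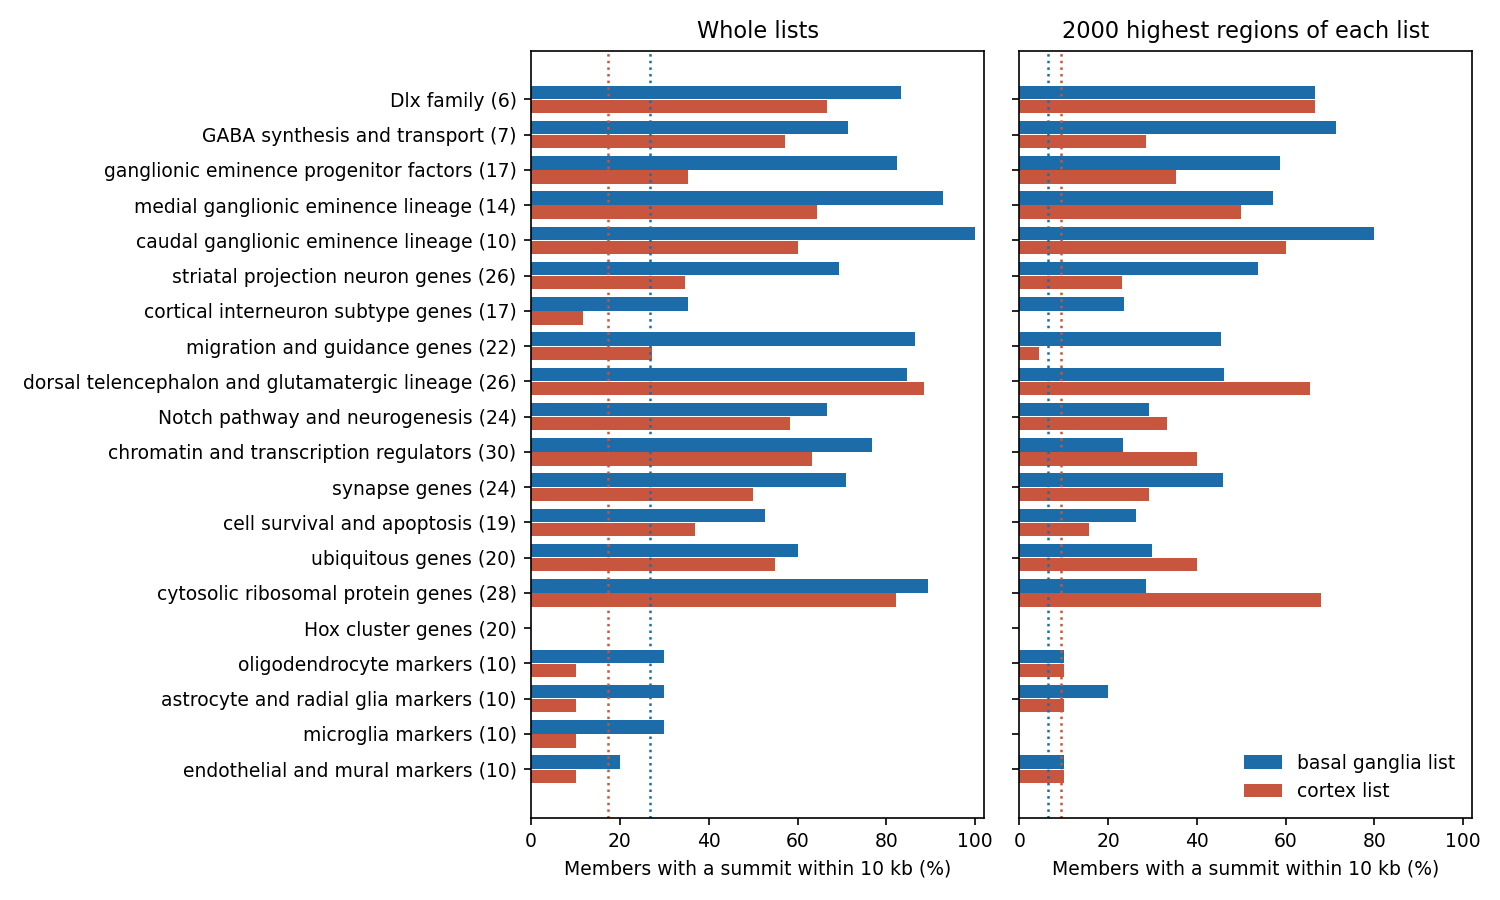
Percent of the members of each gene list (horizontal axis) with a summit within 10 kb, in the basal ganglia and cortex lists, for whole lists (left) and for the top 2000 regions by −log10 q of each (right); brackets give the number of members and dotted lines the share of all protein-coding genes. With 2000 regions each, migration and guidance genes stood at 10 of 22 against 1 of 22, and ribosomal protein genes at 8 of 28 against 19 of 28. The liver and muscle lists are not drawn.

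The list lengths bear on these counts, so they were repeated with the 2000 highest regions of each list. Those touched 6.42% of protein-coding genes in the basal ganglia list and 9.38% in the cortex list, with 884 genes (4.09%) in both, 505 in the basal ganglia list only and 1145 in the cortex list only. The excess of basal-ganglia-only over cortex-only genes in the whole lists (2622 against 577) was therefore turned round at equal length. At equal length the gene lists differed in how far the contrast remained. Of the striatal genes 14 of 26 were occupied in the basal ganglia list and 6 in the cortex list, of the migration genes 10 and 1 of 22, of the GABA genes 5 and 2 of 7, and of the dorsal and glutamatergic genes 12 and 17 of 26. The dorsal genes in the cortex list only then included Neurod1, Pax6, Neurod6, Emx1, Slc17a7, Slc17a6 and Eomes, and those in the basal ganglia list only Cux1, Cux2 and Sox5. Dlx1, Dlx2, Dlx5 and Dlx6 were in both. The lists of the eminences were closer together, with 8 and 7 of the 14 medial genes, 8 and 6 of the 10 caudal genes and 10 and 6 of the 17 progenitor factors, and Lhx6 and Hes5 were then in the cortex list only.

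Genes of general cellular function were also occupied. Of all protein-coding genes 14.5% were in both lists, 12.1% in the basal ganglia list only and 2.67% in the cortex list only. Of 28 cytosolic ribosomal protein genes, 22 were in both lists, 3 in the basal ganglia list only, and 1 in the cortex list only (Rpl7, fold 4.35). With 2000 regions per list, 8 were in the basal ganglia list and 19 in the cortex list. The shares of all protein-coding genes were then 6.42% and 9.38%. Of 20 ubiquitous genes 11 were in both, including Gapdh, a glycolytic enzyme (18.2 in the basal ganglia list and 27.1 in the cortex list), and the tubulin gene Tubb5 (17.0 and 24.3). Of 30 chromatin and transcription regulators 18 were in both, 5 in the basal ganglia list only and 1 in the cortex list only (Kmt2d, fold 4.56). Of 24 Notch pathway and neurogenesis genes 13 were in both, among them Sox1 (22.2 and 28.0) and Sox2 (22.0 and 13.5). Of 24 synapse genes 12 were in both, with Nrxn2 the highest (31.2 and 36.3), and 5 were in the basal ganglia list only, among them Snap25 (14.3). Of 19 cell survival genes 7 were in both and 3 in the basal ganglia list only. Whether the level of transcription of a gene moves with its occupancy was not tested, as no expression values were used.

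None of 20 Hox cluster genes, which are silent in the forebrain, had a region within 10 kb in either list. The marker lists of other cell types stood near or below the share of all genes in the basal ganglia list (26.7%) and the cortex list (17.2%). Of 10 markers each, oligodendrocyte, astrocyte and microglia genes had 3 members in the basal ganglia list and 1 in the cortex list, and endothelial and mural genes 2 and 1. Liver genes had 1 and 0 and muscle genes 1 and 1. Those in both lists were Sox10 (oligodendrocytes), Sox9 (astrocytes and radial glia), Aif1 (microglia), Vtn (mural cells) and the muscle gene Ckm. The regions at Aif1, 2 in each list, were not shared. Those in the basal ganglia list only were Olig2, Mog, Slc1a3, Hopx, P2ry12, C1qa, Pecam1 and the liver gene Fga. Among those in neither were Mbp (oligodendrocytes), Gfap and Aqp4 (astrocytes), Cx3cr1 and Csf1r (microglia) and Cdh5 and Kdr (endothelium). These lists describe occupancy near the genes and say nothing of the presence of the cells.

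Most cortex-only regions lay close to basal ganglia regions, whereas most basal-ganglia-only regions lay far from any cortex region. The nearest summit of the other list was a median of 6.12 kb away for cortex-only regions and 220 kb away for basal-ganglia-only regions, and lay within 10 kb for 58.2% and 16.04%. Of the 1937 protein-coding genes with a cortex-only region, 70.4% also held a basal ganglia region, and of the 4302 genes with a basal-ganglia-only region, 39.2% also held a cortex region. These distances and shares were not adjusted for the greater length of the basal ganglia list. Genes with 5 or more regions of a class held 25.1% of cortex-only regions in 69 genes and 21.5% of basal-ganglia-only regions in 317 genes, and genes with 1 held 35.3% and 18.4%. Tcf4, a bHLH factor, had 65 cortex-only regions among 89 cortex regions and 7 basal-ganglia-only regions among 37. Nfib, encoding a nuclear factor I protein, had 37 of 48 and 5 of 19. Ttc28 had 29 of 37 and 4 of 12, and Tnrc18 17 of 31 and 2 of 17. Nfix had 15 of 24 and 0 of 25. The genes with the most basal-ganglia-only regions were the RNA-binding gene Msi2 (31 of 35 basal ganglia regions), the phosphatase gene Ptprn2 (31 of 33), Auts2 (29 of 41), Bcl11b (29 of 38) and Meis2, a homeodomain factor of striatal neurons (28 of 46).

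Genes occupied in the basal ganglia list only were long, with a median length of 55.5 kb, against 20.5 kb for the cortex list only, 18.3 kb for both lists and 17.3 kb for all protein-coding genes. Among the 5407 longest genes 26.6% were occupied in the basal ganglia list only, against 4.84% of the 5408 shortest. For the cortex list only the shares were 2.33% and 1.55%. The share in the cortex list only did not follow length in the same order, with 3.76% of the 5406 next-longest genes. The migration and guidance, synapse and striatal lists held long genes, with median lengths of 163, 103 and 70.3 kb. The part of gene length in the gene counts was not tested.

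The classes differed in where they lay. On the 19 chromosomes with listed starts, 9.14% (8.59 to 9.71%) of basal-ganglia-only summits and 4.89% (4.05 to 5.85%) of cortex-only summits were within 1 kb of a transcription start, against 10.4% of shared cortex regions, and such stretches make up 2.19% of the bases. The order of the first pair held at 1 kb and was turned round within 5 kb, with 20.02% of basal-ganglia-only and 23.7% of cortex-only summits, and within 1 kb of either gene boundary, with 13.6% and 18.6%. On all 20 chromosomes any gene body held 92.1% of cortex-only, 65.2% of basal-ganglia-only and 90.3% of shared cortex summits. Genes cover 47.6% of the span of the 19 chromosomes with listed starts. On those 19 chromosomes basal-ganglia-only summits were over 1 kb from a start and outside genes in 32.2% of cases, against 7.71% of cortex-only summits. Their median distance to a start was 31.3 kb, compared with 14.8 kb for cortex-only and 9.64 kb for shared cortex summits. The 10 basal-ganglia-only regions highest in −log10 q followed this, as 7 lay 7.94 to 212 kb outside the nearest protein-coding gene. They included a region 60.7 kb from Nkx2-1 (fold 22.8), a region 18.95 kb from Acadsb (25.6), and regions within Nubpl (24.03), Iqch (23.4) and Pcca (23.1). Of the 10 highest cortex-only regions, 8 lay within genes, namely Emx1, Brd1, Ifnar1, Rbbp6, Dpp9, Slc17a7 and, with a pair of regions, Nfix. The highest of all lay at chr17:4625954-4626820, 368 kb from Arid1b, with fold 39.2.

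**Figure D4:**
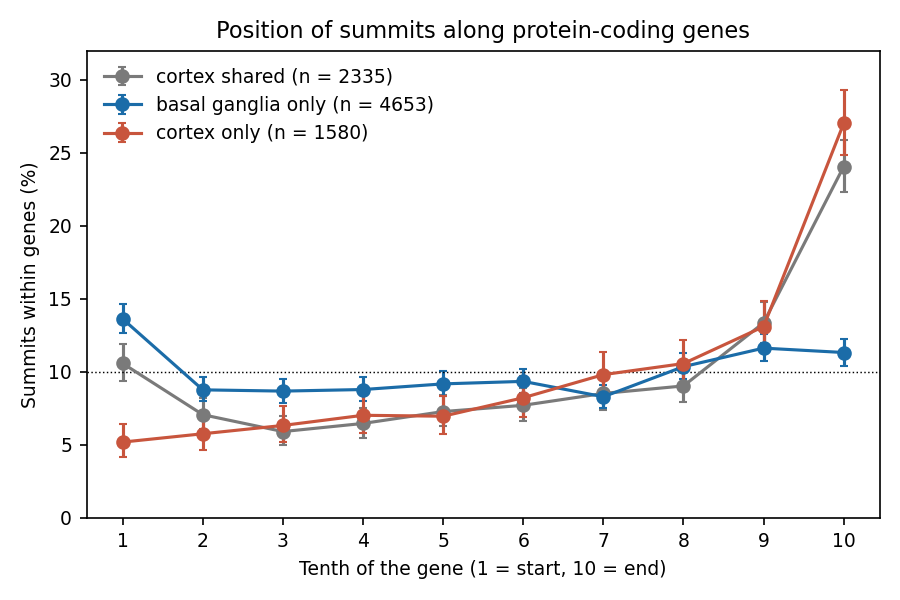
Percent of summits within protein-coding genes longer than 5 kb (vertical axis) in 10 equal stretches of the gene from start to end (horizontal axis), for shared cortex, basal-ganglia-only and cortex-only regions, with exact 95% intervals; the dotted line marks an even spread. Shared and cortex-only summits rise towards the gene end, to 24.1% and 27.0%, and basal-ganglia-only summits stay near 10%. Only genes with a listed start entered, and a summit within several of them was counted in each.

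Shared and cortex-only summits were gathered at the ends of genes. In protein-coding genes longer than 5 kb, the stretch nearest the gene end that makes up 10% of the gene held 27.0% (24.8 to 29.3%) of 1580 cortex-only summits and 24.1% (22.3 to 25.9%) of 2335 shared cortex summits. It held 11.3% (10.4 to 12.3%) of 4653 basal-ganglia-only summits. Shared regions seen from the basal ganglia list gave 23.99%. Only genes with a listed start were used, and a summit within several of them was counted in each. The intervals treat these counts as independent. The 10% nearest the start held 5.19% of cortex-only, 10.6% of shared cortex and 13.6% of basal-ganglia-only summits. In the plot of position along genes the cortex-only and shared curves run close together over the second part of the gene, and the basal-ganglia-only curve is nearly flat. With regions of at most 1 kb the share at the gene end was 26.9% for cortex-only, 23.2% for shared cortex and 11.2% for basal-ganglia-only summits, so the pattern was also present without the wide regions.

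Overlap with the other 3 Dlx2 lists, which the rule did not use, separated the classes. Of the basal-ganglia-only regions, 1059 (9.75%; 9.20 to 10.3%) overlapped a region of the E16 olfactory bulb list, against 1 of 2432 cortex-only regions (0.0411%) and 147 of 3876 shared basal ganglia regions (3.79%). The P3 cortex list was met by 523 basal-ganglia-only (4.82%) and 4 cortex-only regions (0.164%), and the P3 bulb list by 417 (3.84%) and 1. Any of the 3 was met by 13.6% (13.0 to 14.3%) of basal-ganglia-only and 0.206% (0.0668 to 0.479%) of cortex-only regions. Counted from the E16 bulb list, 1071 of its 1665 regions (64.3%) overlapped a basal ganglia region of any class and no cortex region. Another 140 overlapped regions of both lists, 1 a cortex region and no basal ganglia region, and 453 neither. Of the 2116 P3 cortex regions, 538 (25.4%) overlapped an E16 basal ganglia region and no E16 cortex region, and 5 the reverse.

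**Figure D5:**
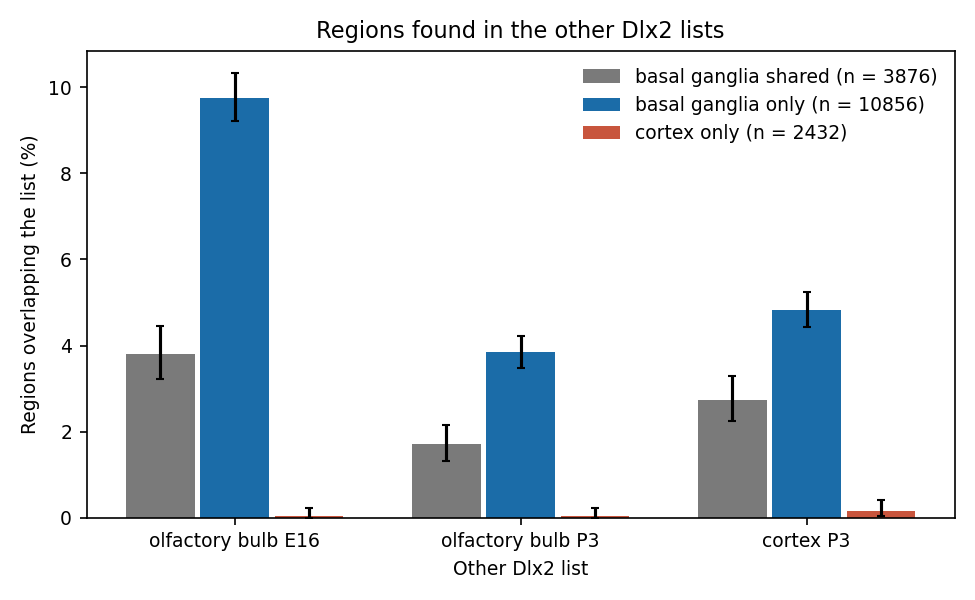
Percent of shared basal ganglia, basal-ganglia-only and cortex-only regions (vertical axis) that overlap the E16 olfactory bulb, P3 olfactory bulb and P3 cortex lists (horizontal axis), with exact 95% intervals. Basal-ganglia-only regions stand highest in each list and cortex-only regions at 0.0411% to 0.164%.

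Rank within the list did not remove this contrast. Of the 2714 basal-ganglia-only regions highest in −log10 q, 27.7% overlapped the E16 bulb list, and 6.41%, 3.24% and 1.69% did in the following sets of 2714. Of the 608 highest cortex-only regions 0 did, which is at most 0.605% by the exact interval. All 10 of the highest basal-ganglia-only regions overlapped the E16 bulb list, and 0 of the 10 highest cortex-only regions overlapped any other list, Emx1 and Slc17a7 included. All regions of both E16 lists discussed here carry the same pattern of region names with a mark for removed duplicate reads, while the other 3 lists follow other patterns, so a batch and a tissue or age cannot be told apart between them. The lists of the bulb and of P3 are also shorter, with 734 to 2139 regions as deposited.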

How the data were processed

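Dlx2 ChIP-seq of mouse basal ganglia and cortex at E16, 1 library each, was analysed from the authors' deposited lists of enriched regions. Trimmomatic, Bowtie2, SAMtools and MACS2, without versions, and the mouse build mm10 are named per the submitters' processing notes. The sources used here do not give the threshold, control library or depth, so the precision of a single region is unknown. The fold enrichment is the authors' ratio of signal to local background, and the significance is −log10 of the q-value, both as deposited. The deposited score column, written by the authors' peak caller, was not used further. Fold and significance were used to describe or rank regions within their list. Folds were also correlated between the lists over the pairs with summits within 200 bp.

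Regions on chromosomes 1 to 19 and X were kept, 14732 of 14795 and 6307 of 6333. Overlap needed at least 1 bp, and summits were matched within 200 bp. Gene boundaries were read from RefSeq annotation of GRCm38.p6 (identical to mm10), which lists 49550 genes on these chromosomes, 21627 of them protein-coding. Starts came from RefSeq promoter windows, 32619 starts of 26794 genes, with no entries on chromosome 18, so measures by start leave that chromosome out. All symbols of the 22 gene lists were matched to the table, and some genes stand in more than 1 list. The members and lists were chosen with earlier results of these data known. Genes were named by a rule: the Dlx and GABA lists and Cxcl14, up to 4 members of each list and class with the highest fold, the genes at the 10 highest regions of each class and the 5 genes with the most regions of a class. A few others were named after their values were seen, among them other dorsal factors and genes in neither list. A few genes that the rule takes are not reported here. No test between tissues was possible with 1 library per group. Scripts used Python 3.11.15, numpy 2.4.6, pandas 2.3.3 and SciPy 1.17.1 and were tested on simulated regions. Alternatives were another overlap rule, a threshold of 10 on −log10 q, equal list lengths, narrow regions, and other distances to starts and genes.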

Additional observations from a re-analysis of the deposited data

Results flagged for a closer look

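Signal outside the chromosomes compared was present in both lists. The basal ganglia list held 27 regions on chromosome Y and the cortex list 25, although the labels give no sex of the embryos. The basal ganglia list also held 31 regions on the unplaced scaffold Un_JH584304, where the cortex list held 0. These regions entered no comparison.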

How the results depend on the processing

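No paired analysis was possible because each tissue had 1 library. With no replicates, values were judged against the 95% interval of the main value. The share of cortex regions that were shared was 57.5% when the overlap had to span 0.5 of the shorter region, 38.8% with summits within 200 bp, 59.6% with −log10 q of at least 10, 32.15% with 2000 regions per list and 35.5% with regions of at most 1 kb; for basal ganglia regions these were 24.6%, 16.6%, 22.8%, 29.95% and 13.2%. Pairs with close summits made up 36.9% at 100 bp, 76.0% at 500 bp, 69.3% for narrow regions and 64.2% at −log10 q of at least 10. Summits near a start, for shared cortex, basal-ganglia-only and cortex-only regions, made up 34.2%, 20.02% and 23.7% within 5 kb, 7.82%, 6.61% and 3.77% with protein-coding genes, and 24.7%, 13.6% and 18.6% by either gene boundary, an alternative chosen after seeing the data. Within 5 kb and by boundary the order of the last pair was turned round. At −log10 q of at least 10 the share was 5.34% for basal-ganglia-only and 2.36% for cortex-only regions. Genes in both lists, the basal ganglia list only and the cortex list only were 9.003%, 9.15% and 2.31% without extension, 25.8%, 17.1% and 3.25% with 50 kb, and 4.09%, 2.34% and 5.29% with 2000 regions. At −log10 q of at least 10, 7.87% were in both and 6.79% in the basal ganglia list only. Overlap with any other list was 12.8% (summits) and 26.3% (−log10 q of at least 10) for basal-ganglia-only regions, and 0.491% at that threshold for cortex-only regions. Why these values moved was not tested beyond what each rule itself leaves out. Of 188 values for gene lists and positions in genes under alternatives chosen after seeing the data, 129 kept within the tolerance. Depth limits all statements on missing regions.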
